A study of Homo sapiens with 6 samples.

Results

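The genes of cholesterol and fatty acid synthesis were compared between parental SH-SY5Y cells and SY5Y-TR1 cells, the subline of the same neuroblastoma (NB) line that tolerates the ALK inhibitor TAE684. A list of 33 genes held the enzymes of the mevalonate and sterol pathways, the genes that control the SREBP transcription factors and the enzymes that build and desaturate fatty acids. Of these, 30 had a value among 19752 genes measured. CYP51A1 and FADS1 are matched only by probe sets that name several genes and were given no value, and the remaining listed gene was not analysed here. Each gene was represented by its brightest probe set, judged by the mean of all 6 arrays. All 30 measured genes entered the test, with no filter on low signals.

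Both lines carry the activating mutation F1174L of ALK, and both were grown in RPMI medium with fetal bovine serum. SH-SY5Y, a human NB line, was kept without inhibitor (3 arrays), and SY5Y-TR1 was kept in 1 μM TAE684 (3 arrays). SY5Y-TR1 is 1 subclone, expanded after months of rising doses, so that clone, acquired resistance and inhibitor in the medium cannot be told apart in these arrays. The labels and the methods name 3 biological replicates of each line without describing the cultures, so p-values measure the spread between these samples, which may be technical.

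Cells make cholesterol from acetyl-CoA through mevalonate, isoprenoid diphosphates, squalene and lanosterol, and they make fatty acids by carboxylating acetyl-CoA and extending the chain. SREBP factors are held in the endoplasmic reticulum by SCAP and the INSIG proteins when sterol is plentiful. When membrane sterol falls, SCAP escorts them to the Golgi, where proteases release the part that enters the nucleus and activates genes of both pathways. Neural cells make most of their own sterol, and dividing cells need both lipids for new membrane.

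RNA was measured on Affymetrix U133 Plus 2.0 arrays, and signals were summarised by RMA (robust multi-array average) on a log2 scale, so that a difference of 1 is a 2-fold difference, and the signal of one probe set cannot be set against that of another. Array medians lay between 5.56 and 5.59, and Pearson's r across genes was 0.998 to 0.999 within a line and 0.948 to 0.950 between the lines. A background level of 5.88 was taken as the 90th percentile of 36 genes of unrelated tissues, because no detection calls came with the values. All members but MVD lay above it on every array. Of 8 measured noradrenergic neuroblast markers, 7 lay above it on every SH-SY5Y array and TH on no array. 5 of the 8 were at least 2-fold lower in SY5Y-TR1, and the mean log2 signal of the list ran from 9.80 to 9.82 in SH-SY5Y and from 7.62 to 7.78 in SY5Y-TR1. Of the other cell types, 3 Schwann cell, 4 blood cell, 5 endothelial, 4 hepatocyte and 4 adipocyte markers were measured, and 1 of each list lay above that level on every array of at least one line. SOX10 (mean log2 signal 6.11 in SH-SY5Y and 6.18 in SY5Y-TR1), CD79A (6.13 and 6.26) and TTR (6.20 and 6.34) did so on all 6 arrays, and PECAM1 (5.92 and 6.02) on 5 of 6. The adipocyte marker CFD was higher in SY5Y-TR1, at 6.51 against 5.02. S100B, PTPRC, CDH5, KDR, ALB and ADIPOQ were below the level on all 6 arrays. Of 7 fibroblast or mesenchymal markers, 3 were at least 2-fold higher and 2 lower, with list means of 9.28 to 9.37 in SH-SY5Y and 9.38 to 9.50 in SY5Y-TR1.

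SY5Y-TR1 cells had less RNA of most of these genes. At a Benjamini-Hochberg adjusted p under 0.05 from limma, 17 of the 30 members were lower, 5 were higher and 8 did not pass. Over all genes 24.4% were lower and 28.5% higher at that limit, and 52.9% passed in either direction. With a fold of at least 2 required as well, 6 members were lower, namely SCD, HMGCS1, ACAT2, INSIG1, FADS2 and EBP, and 1 was higher, TM7SF2. Over all genes the corresponding shares were 5.99% lower, 5.36% higher and 11.4% in either direction. Brighter genes passed more often in any case: among the 12264 genes above the background level on every array of a line, 35.2% were lower at the adjusted p limit, 73.2% passed in either direction and 8.94% were at least 2-fold lower. The share of members that passed in either direction, 73.3%, was thus near that of bright genes. The share of members that were lower, 56.7%, stood above the 35.2% of bright genes that were lower. The median log2 fold change of the members was -0.34, against 0.04 over all genes. Fewer expressing cells and less RNA per cell cannot be told apart in these bulk samples.

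**Figure D1:**
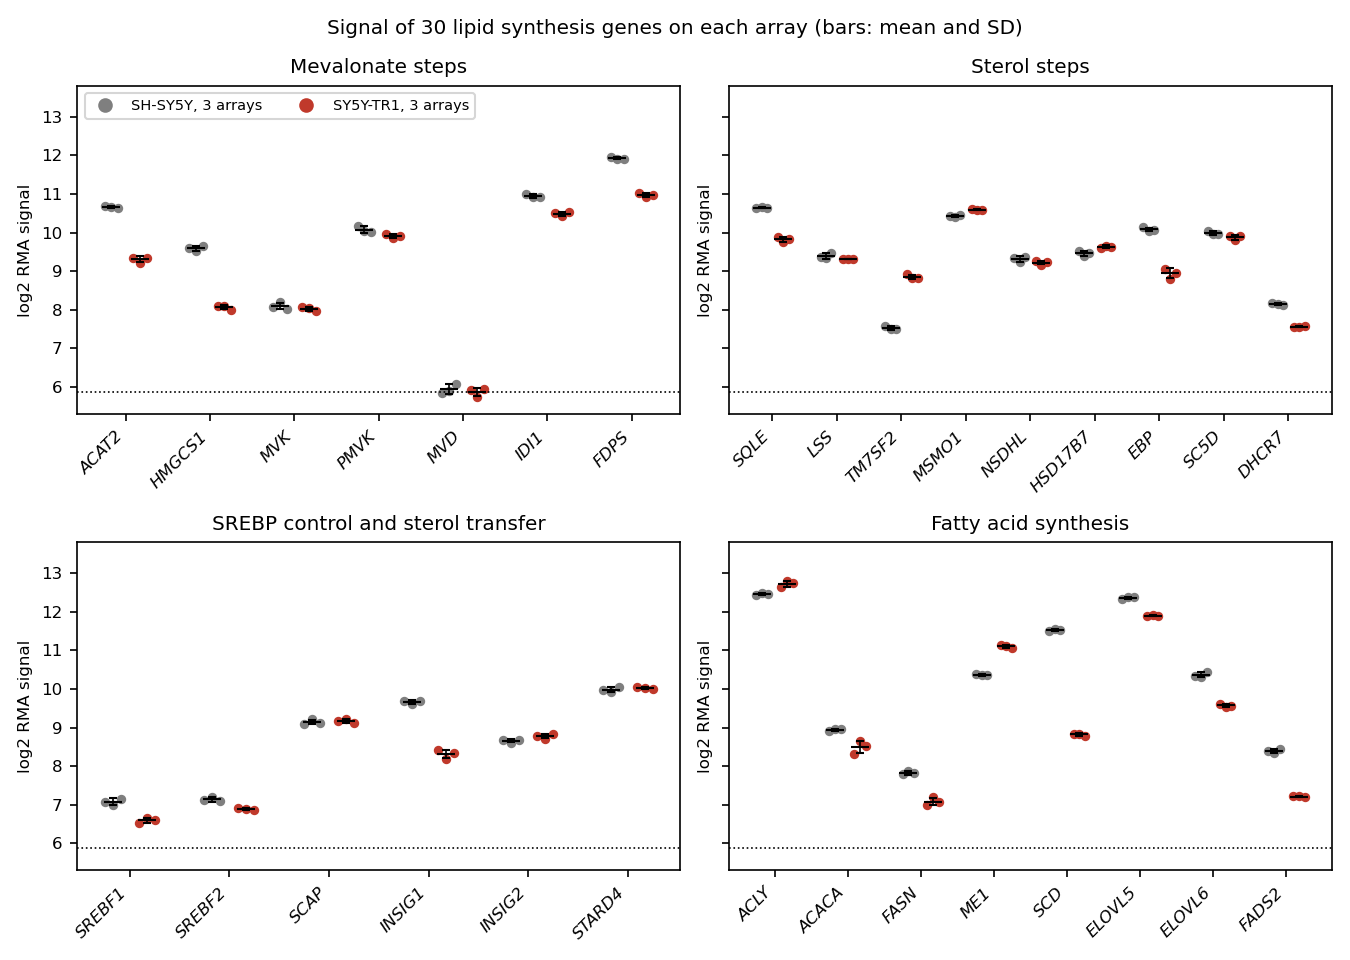
Log2 RMA signal (y axis) of each of the 30 measured genes (x axis) in 4 functional groups; grey points are SH-SY5Y arrays and red points SY5Y-TR1 arrays, 3 of each, with bars for mean and SD, and a dotted line is drawn at 5.88, the background level. SCD stands at 11.53 in SH-SY5Y and 8.82 in SY5Y-TR1, whereas MVD lies at the dotted line throughout.

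The RNA for the entry into the mevalonate pathway was lower in SY5Y-TR1. ACAT2, which joins acetyl-CoA units to acetoacetyl-CoA in the cytosol, read 10.69, 10.66 and 10.64 on the SH-SY5Y arrays and 9.35, 9.22 and 9.35 on the SY5Y-TR1 arrays. It was 2.55-fold lower (limma log2 fold change -1.35 with standard error 0.05, adjusted p = 8.34e-07). HMGCS1, the synthase that makes HMG-CoA from that product, read 9.61, 9.53 and 9.65 in SH-SY5Y against 8.10, 8.10 and 8.01 in SY5Y-TR1. It was 2.88-fold lower (limma log2 fold change -1.53 with standard error 0.05, adjusted p = 5.05e-07), the largest fall among the mevalonate and sterol genes, and ranked 684 from the bottom of 19752 genes. For both genes the lowest SH-SY5Y array stood more than 1 log2 unit above the highest SY5Y-TR1 array, and both HMGCS1 probe sets passed at 2-fold.

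The next steps of the pathway did not follow by the same amount. MVK, which phosphorylates mevalonate, had a log2 fold change of -0.07 (95% interval -0.21 to 0.07), with SH-SY5Y arrays at 8.03 to 8.19 and SY5Y-TR1 arrays at 7.97 to 8.07. The brightest MVK probe set thus overlapped between the lines, although 2 dimmer MVK probe sets passed as lower, with log2 fold changes of -0.25 and -0.38. PMVK, the second kinase, was 1.12-fold lower, with an adjusted p = 0.0495 from limma that lies at the limit. MVD, which decarboxylates the product to isopentenyl diphosphate, was not distinguishable from background, at 5.95 in SH-SY5Y and 5.88 in SY5Y-TR1, so no change could be read for it.

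Further along, the enzymes that build longer isoprenoids were lower again. IDI1, the isomerase of isopentenyl diphosphate, fell by 0.46 on the log2 scale (1.38-fold, adjusted p = 0.000125 from limma). 2 of its 4 probe sets passed, both of a kind whose name marks possible cross-hybridization. Another of that kind, above the background level on all 6 arrays, did not pass at 0.13. The only probe set of another kind did not pass at -0.18, with means of 6.14 in SH-SY5Y and 5.96 in SY5Y-TR1, near the background level. FDPS, which makes farnesyl diphosphate for sterols and for protein prenylation, read 11.96, 11.91 and 11.92 in SH-SY5Y and 11.04, 10.93 and 10.98 in SY5Y-TR1. Its fold of 1.92 (log2 fold change -0.94, 95% interval -1.05 to -0.84, adjusted p = 2.85e-06 from limma) lay just inside the 2-fold limit. Of the 7 mevalonate genes, 5 were lower and 2 did not pass, with 2 at least 2-fold lower and a median log2 fold change of -0.46. Among bright genes 35.2% were lower and 8.94% at least 2-fold lower.

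**Figure D2:**
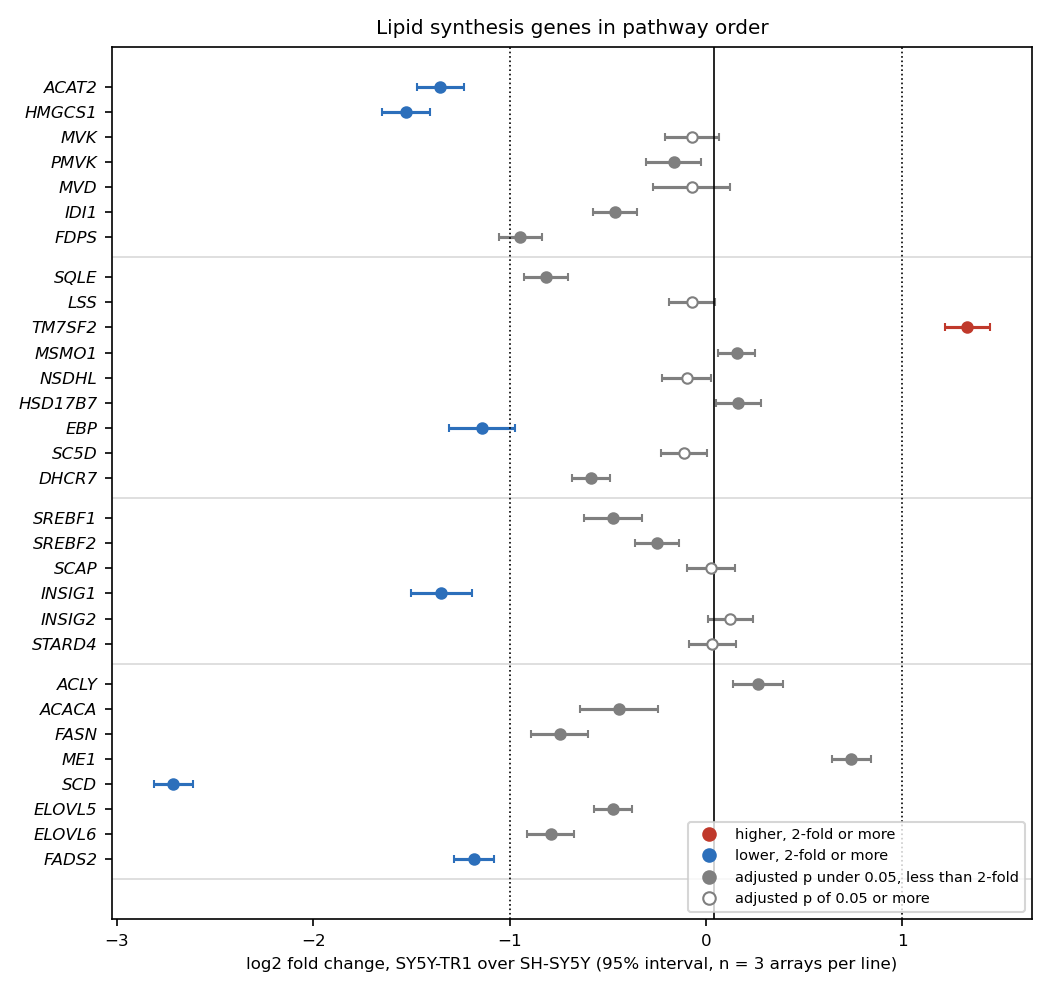
Log2 fold change of SY5Y-TR1 over SH-SY5Y (x axis) for each measured gene in pathway order (y axis), with its 95% interval (n = 3 arrays per line). Blue and red mark genes lower or higher by at least 2-fold, grey filled points those that passed the adjusted p limit with a smaller fold, open points those that did not pass; the solid line is the median of all genes, 0.04, and dotted lines mark 2-fold. The fatty acid group holds no open point, and TM7SF2 is the only gene beyond 2-fold on the right.

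The steps from squalene to cholesterol moved in both directions. Among 9 measured genes there were 3 that fell, 3 that rose and 3 that did not pass, and the median log2 fold change was -0.10. In this group 33.3% were lower and 66.7% passed in either direction, near the 35.2% and 73.2% of bright genes. SQLE, the squalene epoxidase that controls flux into sterols, was lower on every SY5Y-TR1 array. It read 10.64, 10.66 and 10.65 in SH-SY5Y and 9.90, 9.77 and 9.83 in SY5Y-TR1 (1.76-fold lower, log2 fold change -0.82, adjusted p = 6.69e-06 from limma). All 4 SQLE probe sets passed as lower. LSS, which closes the ring system to lanosterol, did not pass (log2 fold change -0.07, 95% interval -0.19 to 0.04).

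TM7SF2, a sterol reductase that acts after lanosterol is demethylated, was the one member higher by at least 2-fold. Its arrays read 7.58, 7.49 and 7.51 in SH-SY5Y and 8.92, 8.84 and 8.82 in SY5Y-TR1. The signal was 2.52-fold higher (limma log2 fold change 1.33 with standard error 0.05, adjusted p = 7.39e-07), through the only probe set that names it, one of a kind whose name marks possible shared sequence. All 3 SY5Y-TR1 arrays stood above the SH-SY5Y arrays, by far more than the SD of 0.04 and 0.06 within the lines. MSMO1 and HSD17B7, which help remove the methyl groups of the sterol ring, were higher by 1.11-fold and 1.12-fold (log2 fold changes 0.16 and 0.17, adjusted p = 0.0123 and 0.0253 from limma). NSDHL, the decarboxylating partner of these enzymes, had a log2 fold change of -0.10 (95% interval -0.22 to 0.03).

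The isomerase gene EBP, which shifts a double bond of the sterol ring, read 10.14, 10.05 and 10.07 in SH-SY5Y and 9.06, 8.81 and 8.96 in SY5Y-TR1. It was 2.21-fold lower (limma log2 fold change -1.14 with standard error 0.07, adjusted p = 1.00e-05). Of its 4 probe sets, 3 passed as lower and 2 of these by at least 2-fold, and with the mean of all 4 the log2 fold change was -0.79. The probe set that did not pass, at -0.14, lay under the background level on every SY5Y-TR1 array. SC5D, the desaturase that follows, did not pass at -0.11 (95% interval -0.23 to 0.01). DHCR7, which reduces the last double bond of one route to cholesterol, read 8.19, 8.15 and 8.12 against 7.56, 7.56 and 7.58 and fell by 0.59 on the log2 scale (adjusted p = 1.74e-05 from limma). Genes that were lower, genes that were higher and genes that did not pass were thus mixed along the post-squalene steps.

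Among the genes of SREBP control, INSIG1 changed most. INSIG1 retains SCAP in the endoplasmic reticulum and is itself a well-known SREBP target. Its arrays read 9.70, 9.61 and 9.69 in SH-SY5Y and 8.41, 8.20 and 8.34 in SY5Y-TR1, a 2.54-fold lower signal (limma log2 fold change -1.35 with standard error 0.06, adjusted p = 2.81e-06). Its 3 probe sets had log2 fold changes of -1.44 to -1.35, and all 3 passed at 2-fold. INSIG2, the related retention factor, had SH-SY5Y arrays at 8.61 to 8.69 and SY5Y-TR1 arrays at 8.71 to 8.83 and did not pass (log2 fold change 0.12, adjusted p = 0.0714 from limma). The changes of INSIG1 and INSIG2 differed by -1.47 on the log2 scale (standard error 0.04, exact two-sided permutation p = 0.1, the smallest that 3 against 3 arrays allow).

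The genes of the factors themselves were lower by less than 2-fold. SREBF1, which encodes the factor known mainly for fatty acid genes, read 7.08, 6.98 and 7.16 against 6.53, 6.65 and 6.62 (1.39-fold lower, log2 fold change -0.47, adjusted p = 0.000487 from limma). Its other probe set did not pass at 0.09, with means of 5.96 in SH-SY5Y and 6.05 in SY5Y-TR1, near the background level. SREBF2, whose product acts mainly on sterol genes, was 1.19-fold lower (log2 fold change -0.25, adjusted p = 0.00353 from limma), and 2 of its 3 probe sets passed as lower. SCAP, the sterol sensor and escort, and STARD4, a cytosolic carrier of cholesterol, each had a log2 fold change of 0.03, with overlapping arrays and 95% intervals of -0.10 to 0.15 and -0.09 to 0.15. Of the 6 genes in this group, 3 were lower, none was higher and 3 did not pass, against 35.2% lower among bright genes.

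Each of the 8 fatty acid genes passed at an adjusted p under 0.05 from limma, 6 as lower and 2 as higher. Among bright genes 73.2% passed in either direction and 35.2% as lower. SCD, the stearoyl-CoA desaturase that makes oleic acid, showed the largest change of the whole list. It read 11.50, 11.56 and 11.54 in SH-SY5Y and 8.84, 8.84 and 8.78 in SY5Y-TR1. The signal was 6.56-fold lower (limma log2 fold change -2.71 with standard error 0.04, adjusted p = 2.43e-08), and SCD ranked 215 from the bottom among 19752 genes. The spread within a line was 0.03 (SD, n = 3) in both lines. All 4 SCD probe sets passed as lower, but the 3 dimmer ones gave smaller log2 fold changes of -1.10, -0.52 and -0.51. The probe sets at -0.52 and -0.51 lay under the background level on every SY5Y-TR1 array, so their folds may be understated. The one at -1.10 stayed above that level on all 6 arrays. The direction is thus shared, and the size differed also between the brightest probe set and the one at -1.10. The names of all 4 mark possible shared sequence. The related desaturase SCD5 had a log2 fold change of -0.39 (adjusted p = 0.000173 from limma). The changes of SCD and SCD5 differed by -2.33 (standard error 0.04, exact two-sided permutation p = 0.1, the smallest possible).

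FADS2, the desaturase that starts the synthesis of long polyunsaturated fatty acids, read 8.38, 8.35 and 8.44 in SH-SY5Y against 7.22, 7.22 and 7.19 in SY5Y-TR1. It was 2.27-fold lower (limma log2 fold change -1.18 with standard error 0.04, adjusted p = 7.07e-07). The other FADS2 probe set had a log2 fold change of -0.53, and the mean of both gave -0.86, under the 2-fold limit. That other probe set lay under the background level on every SY5Y-TR1 array, so its fold may be understated. The neighbouring family gene FADS3 went the other way, 4.08-fold higher (log2 fold change 2.03, adjusted p = 3.60e-07 from limma). The changes of FADS2 and FADS3 differed by -3.21 (standard error 0.05, exact two-sided permutation p = 0.1, the smallest possible). These 3 pairs of related genes were chosen after their values were seen, and the permutation p with Benjamini-Hochberg adjustment over the 3 is also 0.1. In each pair the difference separated the lines fully, so that p could only take its smallest value. It therefore cannot decide whether the changes of a pair differ.

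The elongases and the chain-building enzymes were lower by less than 2-fold. ELOVL6, which extends palmitate, read 10.34, 10.32 and 10.44 against 9.62, 9.54 and 9.57 (1.73-fold lower, log2 fold change -0.79), and 1 of its 3 probe sets passed at 2-fold. ELOVL5, which extends polyunsaturated chains, was 1.39-fold lower (log2 fold change -0.47), through the brightest of its 4 probe sets only. Of the others, 2 were above the background level on no array and 1 on a single SH-SY5Y array, so they could hardly show a fall. FASN, the fatty acid synthase, had a mean of 7.83 ± 0.04 (SD, n = 3) against 7.09 ± 0.10 (1.68-fold lower, log2 fold change -0.74). The other FASN probe set did not pass at 0.02, with means of 6.14 and 6.16 near the background level. ACACA, the carboxylase that makes malonyl-CoA, was 1.36-fold lower (log2 fold change -0.44), and its SY5Y-TR1 arrays, at 8.32, 8.65 and 8.52, had the widest SD of any member, 0.17.

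ACLY and ME1 were the 2 fatty acid genes that were higher. ACLY, which splits citrate into cytosolic acetyl-CoA, read 12.45, 12.49 and 12.45 in SH-SY5Y and 12.63, 12.80 and 12.74 in SY5Y-TR1. It was 1.20-fold higher (log2 fold change 0.26, adjusted p = 0.00480 from limma), and all 3 of its probe sets passed as higher. ME1, the malic enzyme that yields NADPH for lipid synthesis, read 10.39, 10.35 and 10.37 against 11.15, 11.11 and 11.07 (1.67-fold higher, log2 fold change 0.74, adjusted p = 6.08e-06 from limma). A second ME1 probe set passed at 2-fold with a log2 fold change of 1.08. SLC25A1, the mitochondrial citrate carrier and no member of the list, was also higher, with a log2 fold change of 0.62 (adjusted p = 0.000120 from limma).

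**Figure D3:**
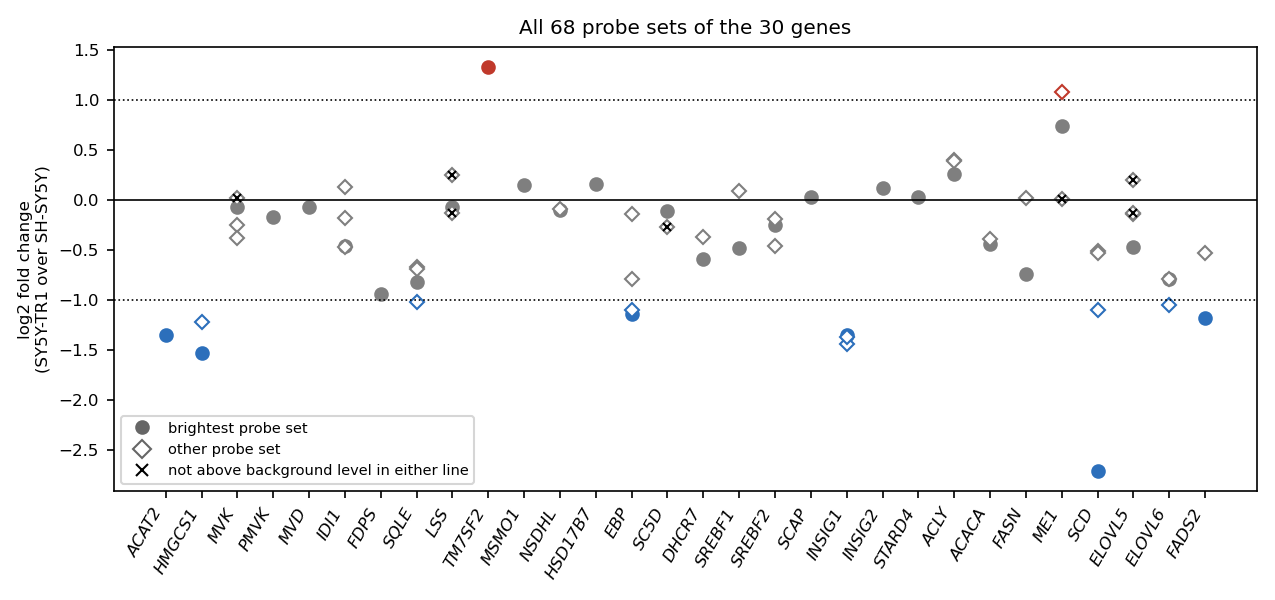
Log2 fold change of SY5Y-TR1 over SH-SY5Y (y axis) for all 68 probe sets of the 30 genes (x axis); a filled circle stands for the probe set used for the gene and an open diamond for any other. Blue and red mark probe sets that were lower or higher by at least 2-fold with an adjusted p under 0.05, crosses mark those at background on all 6 arrays, and dotted lines mark 2-fold. The INSIG1 probe sets lie together between -1.44 and -1.35, whereas those of SCD spread from -2.71 to -0.51.

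Over all 68 probe sets of the members, 36 were lower and 8 higher at an adjusted p under 0.05 from limma, against 40.6% of all 54613 probe sets in either direction. At 2-fold, 13 were lower and 2 higher, against 8.37% of all probe sets in either direction. 7 of the 68 were not above the background level on any array. For none of the 17 members that were lower did another probe set of the same gene pass as higher. The lines did not overlap in 25 of 30 members (83.3%), against 59.8% of all genes, and these 25 include all 7 members that changed by at least 2-fold. These shares of all genes and all probe sets include dim ones, whereas 29 of the 30 members lay above the background level on every array. The part of brightness in these gaps was not tested. FDPS, at -0.94, lay nearest to the 2-fold limit from inside it and EBP, at -1.14, from outside it.

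**Figure D4:**
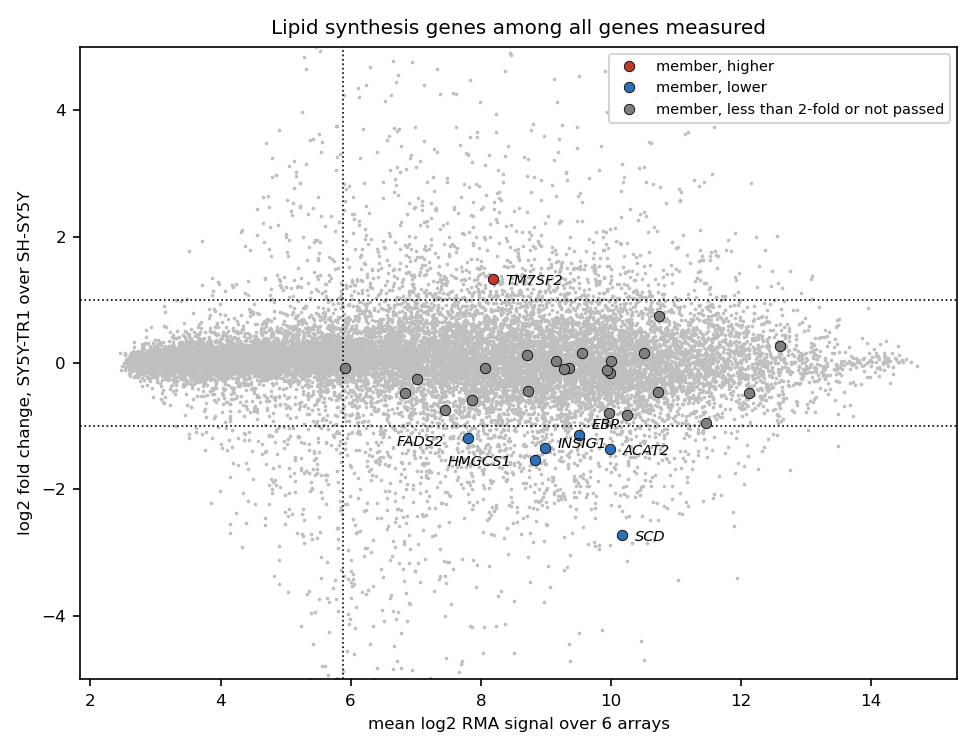
Log2 fold change of SY5Y-TR1 over SH-SY5Y (y axis) against the mean log2 RMA signal of 6 arrays (x axis) for 19752 genes (grey dots; 85 lie beyond the y axis) and the 30 members (large points; blue lower and red higher by at least 2-fold). Horizontal dotted lines mark 2-fold and the vertical one the background level of 5.88. SCD lies lowest among the members at -2.71, TM7SF2 highest at 1.33, and MVD on the vertical line.

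Promoters were read after many members were seen to be lower together. SREBP factors are known to act with the partners NF-Y and Sp1, and whether they act on these promoters here was not tested. RefSeq windows (GRCh38.p14) were found for 27 of the 30 members, and the 250 bases before the first listed start of each were searched on both strands. The SREBP site was searched as the letters TCACNCCAC, NF-Y as CCAAT, Sp1 as GGGCGG and the E-box as CACGTG. Matches of CCAAT on both strands, and of GGGCGG with itself, can share bases. The NF-Y letters were in 18 of 27 member windows (66.7%), against 34.1% of 15390 windows of measured genes and 32.0% of all 35116 windows. GGGCGG was in 24 (88.9%), against 56.3% of windows of measured genes, and the E-box in 4, against 7.82%. The SREBP letters were in 1 member window, that of SREBF2, against 0.832% of windows of measured genes. CCAAT was in 8 of 14 windows of members that were lower and in 10 of 13 windows of the other members. GGGCGG was in 12 of 14 and in 12 of 13 of these windows. The windows of measured genes include those of dim genes, and the part of brightness in the gaps was not tested. A match is a description of the letters, and no binding was measured.

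The windows of the members changed by at least 2-fold that hold CCAAT are printed with that of SREBF2, from 20 bases before the first match to 20 after the last, on the strand of the gene from 5′ to 3′. Capitals mark CCAAT or its reverse complement and, in SREBF2, also the SREBP letters. SCD, the largest fall, holds 2 matches at chr10:100346984-100347071 (plus strand), HMGCS1 2 at chr5:43313488-43313587 (minus strand), INSIG1 1 at chr7:155297688-155297732 (plus strand) and EBP 3 at chrX:48521597-48521802 (plus strand). TM7SF2, the gene that rose, holds 1 at chr11:65111778-65111822 (plus strand), and SREBF2 has both kinds of letters at chr22:41832952-41833023 (plus strand).
SCD: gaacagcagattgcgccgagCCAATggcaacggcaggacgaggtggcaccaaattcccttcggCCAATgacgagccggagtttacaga
HMGCS1: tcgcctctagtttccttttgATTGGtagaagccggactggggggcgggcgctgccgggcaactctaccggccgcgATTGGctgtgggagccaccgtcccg
INSIG1: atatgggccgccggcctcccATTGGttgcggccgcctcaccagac
EBP: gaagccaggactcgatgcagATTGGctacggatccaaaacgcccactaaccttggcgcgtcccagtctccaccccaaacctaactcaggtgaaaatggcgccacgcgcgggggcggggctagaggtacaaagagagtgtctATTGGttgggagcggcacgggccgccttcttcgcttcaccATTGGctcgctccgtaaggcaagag
TM7SF2: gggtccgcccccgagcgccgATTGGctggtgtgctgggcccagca
SREBF2: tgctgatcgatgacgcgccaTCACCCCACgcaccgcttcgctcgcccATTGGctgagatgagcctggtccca
These windows were chosen because they hold the letters. Among the members at least 2-fold lower, 4 of the 5 with a window hold CCAAT, the window of FADS2 does not, and ACAT2 had no window.

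Genes of the neighbouring lipid pathways did not share the downward median. The median log2 fold change was 0.16 for 12 genes of SREBP processing and turnover, 0.11 for 13 of the isoprenoid branch, 0.32 for 24 of sterol uptake, transfer, storage and export, 0.14 for 24 other genes of fatty acid synthesis and activation, 0.16 for 22 of fatty acid oxidation and 0.10 for 23 of glyceride synthesis and lipid droplets. At an adjusted p under 0.05 from limma, 15 sterol transport genes were higher and 3 lower, against 28.5% higher and 24.4% lower over all genes. Of these 24 genes, 21 lay above the background level on every array of a line. The share that passed in either direction, 75%, was near the 73.2% of bright genes, and 12.5% were lower against 35.2% of bright genes. These counts and medians are descriptions, and no list was tested.

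Sterol handling genes were among those that rose. NCEH1, which hydrolyses cholesteryl esters, was higher, with a mean log2 signal of 9.24 against 7.04, and GRAMD1B, which carries cholesterol from the plasma membrane to the endoplasmic reticulum, 2.33-fold higher (log2 fold change 1.22). ABCA1, the cholesterol exporter, was at least 1.36-fold higher, since its SH-SY5Y arrays all lay under the background level. The lysosomal cholesterol transporters NPC1 and NPC2 had log2 fold changes of 0.78 and 0.97, both passing the adjusted p limit below 2-fold. MYLIP, a ubiquitin ligase that degrades lipoprotein receptors, was 3.66-fold lower (log2 fold change -1.87). TMEM97, an endoplasmic reticulum protein that binds NPC1, was 3.88-fold lower (log2 fold change -1.96), whereas the proteases that cut SREBP, MBTPS1 and MBTPS2, had log2 fold changes of 0.43 and 0.61 and passed as higher below 2-fold.

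In the fatty acid lists, ELOVL2, an elongase of very long polyunsaturated chains, was at least 2.07-fold lower, since its SY5Y-TR1 arrays all lay under the background level. ACSL4, which activates arachidonic acid, was 2.08-fold higher. HADH, a dehydrogenase of fatty acid oxidation, was 2.80-fold lower. Of the 22 genes of that list, 12 (54.5%) were higher at the adjusted p limit, all below 2-fold, and 4 (18.2%) were lower. Over all genes 28.5% were higher and 24.4% lower. The share of that list that passed in either direction, 72.7%, was near the 73.2% of bright genes. MGLL, which hydrolyses monoglycerides, was 2.57-fold higher, and HILPDA, a lipid droplet protein, and GPAM, which starts glyceride synthesis, were 2.17-fold and 2.06-fold lower. Among the 13 isoprenoid genes none reached 2-fold in either direction by the limma fit. At the adjusted p limit 4 passed as higher and 4 as lower (30.8% each), near the 28.5% and 24.4% of all genes. The 2 brightest, FNTA and RABGGTB of the prenyltransferases, had log2 fold changes of 0.09 and 0.11.

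**Figure D5:**
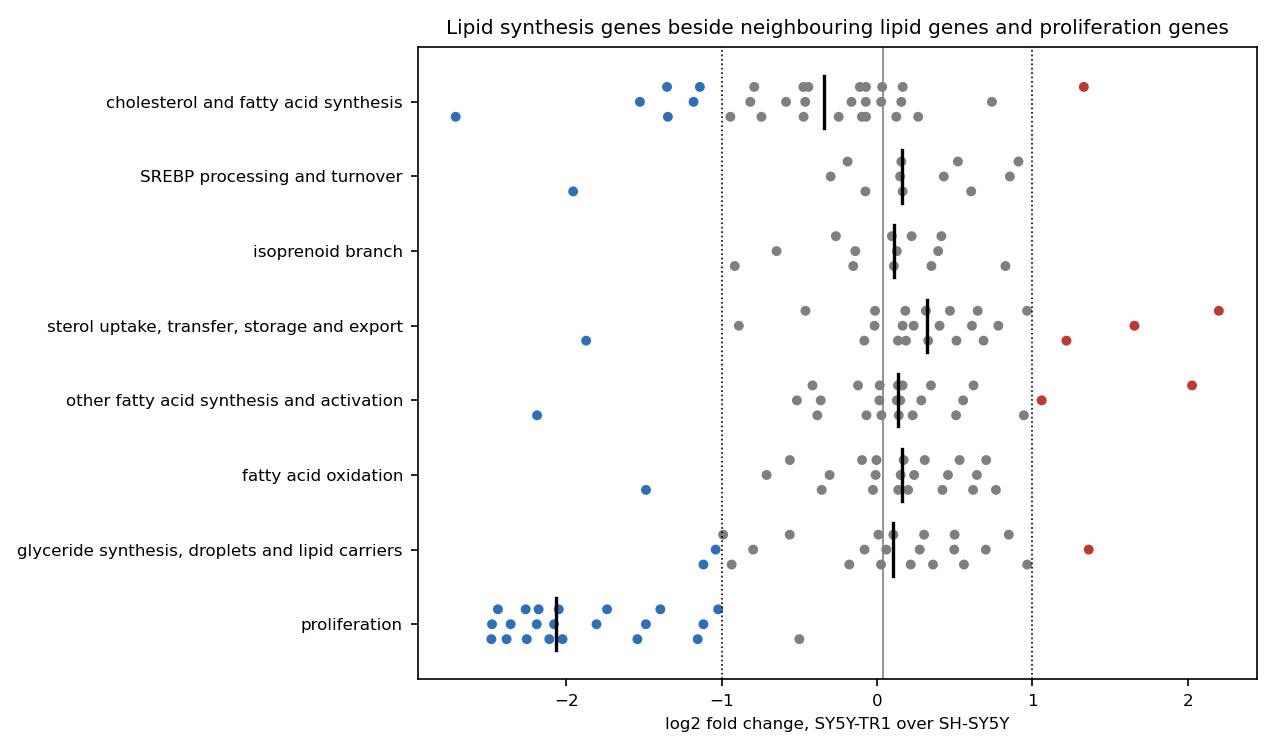
Log2 fold change of SY5Y-TR1 over SH-SY5Y (x axis) for each measured gene of the cholesterol and fatty acid synthesis list, of 6 neighbouring lipid lists and of a proliferation list (y axis); blue and red points were lower or higher by at least 2-fold with an adjusted p under 0.05, grey points were not. Black bars are list medians, the grey line is the median of all genes, 0.04, and dotted lines mark 2-fold. The medians are -0.34 for the synthesis list and -2.06 for the proliferation list.

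Proliferation genes moved in the same direction and further. Of 22 measured genes of that list, 21 were at least 2-fold lower, and the mean log2 signal of the list ran from 11.38 to 11.42 on the SH-SY5Y arrays and from 9.52 to 9.55 on the SY5Y-TR1 arrays. CCNB2, BIRC5 and BUB1B, which act in mitosis, were 5.59-fold, 5.58-fold and 5.43-fold lower. The mean log2 signal of the 30 synthesis genes ran from 9.52 to 9.55 and from 9.10 to 9.12. The part of the lower proliferation genes, of the lower noradrenergic markers or of the changed mesenchymal markers in the lower synthesis genes was not tested.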

How the data were processed

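Affymetrix U133 Plus 2.0 arrays had been hybridized with total RNA, 3 for SH-SY5Y and 3 for SY5Y-TR1. The values deposited by the authors are on a log2 scale. Per the submitters' processing notes they came from RMA in the Affymetrix Expression Console software (version not given in the sources used here), which corrects background, quantile-normalizes and summarizes each probe set. Scanner signals were not used here, so only later steps were varied. Probe sets were named through the platform annotation, with symbols updated through gene identifiers in a RefSeq table of assembly GRCh38.p14. With 62 control probe sets removed, 54613 probe sets entered the test, of which 41091 carried 1 symbol, 1801 several and 11721 none. The lines were set against each other by lmFit and eBayes of limma 3.58.1 (R 4.3.3), over 19752 genes and again over all probe sets. Replicate numbers were not used as a block, and Benjamini-Hochberg adjustment ran over the whole table. The limits of 2-fold and an adjusted p under 0.05 follow the legend of the study's heatmap. Where every array of one line lay under the background level, the fold is at least the other line's mean over that level. The number of arrays limits the precision.

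The members and the lists were chosen with earlier results of these data known. Besides the members, named genes are the 3 largest increases and decreases of each list at 2-fold, or its 2 brightest genes where none was called. SCD5, SLC25A1, NPC1, NPC2, MBTPS1 and MBTPS2 and the markers listed by name were named after their values were seen. In 5 simulations of 19752 genes, in which 200 were changed, at least 71% of genes changed by 0.5 and 98% of those changed by 1.5 on the log2 scale passed the adjusted p limit, with at most 12 unchanged genes passing and none at 2-fold. In the data 52.9% of genes passed that adjusted p limit, a far larger share than was changed in the simulations. The simulated shares and counts therefore do not carry over to this comparison. Alternatives were other choices of probe set, scaling between arrays, treatment of dim probes, the variance model, the methods' t-test, a replicate block, other limits and each array left out.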

Additional observations from a re-analysis of the deposited data

How the results depend on the processing

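The counts of 6 members lower and 1 higher by at least 2-fold were the same when arrays were centred on 26 housekeeping genes, quantile-normalized again, filtered or floored at the background level, or fitted with an intensity trend, by the methods' t-test (also unadjusted), at an adjusted p under 0.01, and without each array in turn. With each array left out, 16 members were lower and 4 to 5 higher at an adjusted p under 0.05, and the median ran from -0.35 to -0.31. With the mean of all probe sets the median was -0.19, against -0.34, and EBP (-0.79) and FADS2 (-0.86) fell under 2-fold, leaving 4. Without probe sets whose names mark shared sequence, 21 members had a value, of which 3 were lower by 2-fold (HMGCS1, EBP and INSIG1), and 11 were lower and 2 higher at the adjusted p limit. SCD, ACAT2 and TM7SF2 have only such probe sets and no value there, FADS2 gave -0.53, and the 1 member higher by 2-fold was ME1 (1.08). At a limit of 1.5-fold, 11 were lower and 2 higher. The replicate numbers were not used to pair the samples in the main fit. Same-numbered arrays of the lines had deviations that correlated at 0.000177, 0.0204 and 0.0297, and differently numbered ones at -0.070 to 0.047. With 3 arrays per line these values cannot decide whether the samples were paired. With the replicate block the counts stayed at 6 and 1, with 17 lower and 4 higher at the adjusted p limit. Centring on housekeeping genes moved the median of all genes by -0.02. No member reversed its direction past 2-fold under any of these settings. Signal over background limited only MVD among the members, and dim probe sets can understate a fold.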
